A study of Mus musculus with 9 samples.

Results

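Bex2, Prdm8, Rprml, Hes2, Fabp1, Stbd1, Tinag, Wfdc16 and Egfl6 are 9 genes whose array signal was low in the lungs of SPC-cre TRF1flox/flox mice after 9 months of tamoxifen. They were chosen from 16843 measured genes for that late signal, and all 10 probes that map to them were taken. TRF1, encoded by Terf1, is a shelterin protein that binds the double-stranded telomere repeat. Control lungs came from cre-negative TRF1flox/flox littermates that had 9 months of tamoxifen and were 11 months old (n = 3). The 3-month cre lungs came from SPC-cre TRF1flox/flox mice at 5 months of age (n = 3), and the 9-month cre lungs from such mice at 11 months of age (n = 3). All 9 mice carried the floxed Terf1 alleles and were given weekly tamoxifen, 250 mg/kg, starting when they were 8 weeks old. The SPC promoter is active in alveolar type 2 cells, the surfactant-producing cells of the alveolus, so a deletion is aimed at 1 cell type of a whole organ. The 3-month cre group has no control of its own age, and its age cannot be told apart from its shorter treatment. RNA of each whole lung was read on 1 one-colour Agilent array, and the labels call the 3 lungs of a group biological replicates.

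Levels are log2 processed signals relative to the 75th percentile of the probes of the same array, so that a level of 0 equals that percentile. A level serves to compare lungs for 1 gene and not 1 gene with another, since probes differ in brightness. The 75th percentile was 958 to 1430 intensity units, the median local background was 28 to 35 units, and no spot was saturated (0 on each array). The array headers place the 3 controls and 3-month cre replicate 1 on slide 1, and the other 5 cre arrays on slide 2. Xist and Y-linked probes read all 3 controls as male, and each cre group as 1 male and 2 females. Terf1 was 0.52 ± 0.19 (SE) lower on the log2 scale in 9-month cre than in control lungs and 0.55 ± 0.19 lower in 3-month cre lungs, and neither difference was called. Where the Terf1 probe lies relative to the deleted part is not known here, so it does not check the deletion. All 14 markers of alveolar type 2 cells were detected. Their summed linear signal, in units of the 75th percentile, was 753 to 891 in controls, 864 to 1152 in 3-month cre and 874 to 1159 in 9-month cre lungs, a sum carried by the brightest markers. Marker by marker the median difference was 0.37 early and -0.13 late against control, with 0 and 1 called lower. It was -0.48 from 3 to 9 months, with 2 called lower. Of all genes, 0.0831%, 2.81% and 3.20% were called lower in these comparisons, in that order.

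The 9 genes do not form 1 pathway. Bex2 belongs to a family of small X-linked proteins studied as signalling adaptors in neurons and in cell survival. Prdm8 and Hes2 encode transcriptional repressors, Rprml is a relative of the cell cycle inhibitor reprimo, and Fabp1 and Stbd1 handle fatty acids and glycogen. Tinag, Wfdc16 and Egfl6 encode secreted proteins of basement membranes, the protease inhibitor fold of whey acidic protein, and the extracellular matrix. In a whole lung, fewer cells of a type and less RNA per cell cannot be told apart.

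Late levels were below control levels on every array for each of the 9 genes, as the choice of the genes requires. The fitted log2 difference between 9-month cre and control lungs ran from -3.07 for Prdm8 to -1.45 for Egfl6, with a median of -2.66, while the median over all genes was 0.024. All 9 lie among the genes called lower in that contrast (limma, Benjamini-Hochberg adjusted p under 0.05), which are 2.81% of all genes, and among the 15.0% of genes with every late array below every control array. Nothing is read from these shares, because the contrast chose the genes. All 3 controls are male and on slide 1 while all 3 late lungs are on slide 2, and 0 of the 9 were called late against control (limma) with the slide as a block (adjusted p 0.923 to 0.985) or with animal sex in the fit (0.0520 to 0.167). Among 447 called falls with a gene name and no overlap, 8 of the 9 genes stood at ranks 2 to 10 by fitted size, where Rprml has no settled rank because 2 of its late signals are not well above background. Alox15 (-3.59), a lipoxygenase of macrophages and eosinophils, stood at rank 1 and Angpt4 (-2.91), an angiopoietin, at rank 4, and neither was well above background on any late array. Ncr1 (-2.41), a receptor of natural killer cells, Bex4 (-2.30) and the atypical chemokine receptor Ackr4 (-2.30) came next after Tinag at rank 10. Egfl6 was at rank 57, beside Bpifb5 (-1.45) and Cybrd1 (-1.43), so by size it is not among the strongest late losses.

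**Figure D1:**
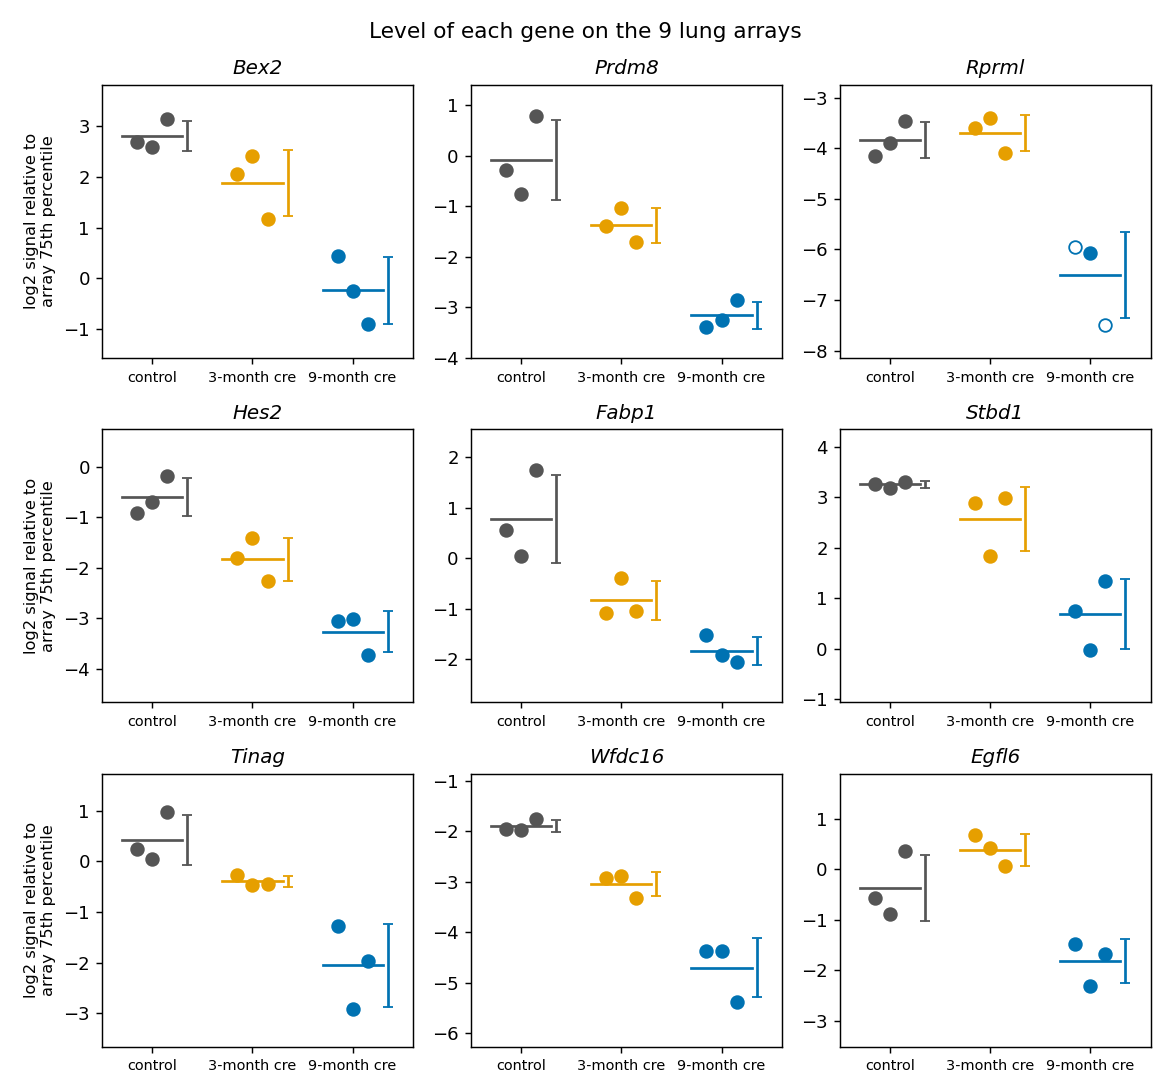
Each point is the log2 signal of 1 lung relative to the 75th percentile of its array, in control (grey), 3-month cre (orange) and 9-month cre (blue) lungs, with open points for signals not well above background, lines for group means and bars for ±1 SD. All panels span the same log2 range; the 9-month cre lungs are lowest for each of the 9 genes, Rprml has 2 open late points, and Egfl6 and Rprml have overlapping control and 3-month cre points.

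Bex2 (chromosome X, 136066565 to 136068236 in GRCm38) was at 2.69, 2.58 and 3.14 in control lungs, 2.06, 2.42 and 1.16 in 3-month cre lungs, and 0.43, -0.25 and -0.90 in 9-month cre lungs. The 3 groups did not overlap, and each step was downward. The late difference from control was -3.05 ± 0.40, a level 8.28-fold lower. At 3 months it was -0.93 ± 0.40, or 30.4% of the late difference on the log2 scale, and it was not called (adjusted p = 0.258). From 3 to 9 months Bex2 fell by 2.12 ± 0.40 (adjusted p = 0.0336).

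Bex2 lies in a stretch of the X chromosome that holds most of its family, the Bex and Tceal genes, which are thought to derive from a common ancestor. The bases just before the annotated start are printed for Bex2 and for 2 relatives that were also lower, from the RefSeq promoter set of GRCm38.p6, to show how far these genes share their upstream sequence. Capitals mark matches, on either strand, to CCAAT, the GC box GGGCGG or the E box CACGTG. The windows are chrX:136068237-136068386, minus strand, for Bex2, chrX:136215514-136215663, minus strand, for Bex1 and chrX:136138846-136138995, plus strand, for Bex4.
Bex2: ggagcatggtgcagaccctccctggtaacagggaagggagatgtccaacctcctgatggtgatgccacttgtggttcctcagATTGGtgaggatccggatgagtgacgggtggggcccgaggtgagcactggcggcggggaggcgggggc
Bex1: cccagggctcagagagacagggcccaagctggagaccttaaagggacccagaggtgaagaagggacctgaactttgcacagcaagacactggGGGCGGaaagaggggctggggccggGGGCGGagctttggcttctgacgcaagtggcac
Bex4: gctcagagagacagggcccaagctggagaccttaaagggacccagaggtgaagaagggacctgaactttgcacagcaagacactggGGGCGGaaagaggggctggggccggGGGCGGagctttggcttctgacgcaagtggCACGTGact
In the 250 bases before the start, Bex1 and Bex4 shared an unbroken run of 221 identical bases, in opposite orientation on the chromosome. That run held the pair of GC boxes of both windows, 58 and 33 bases before the start of Bex1 and 64 and 39 before that of Bex4. Bex2 held no GC box and had 1 CCAAT match, 68 bases before its start. The longest run that Bex2 shared with Bex1, or with Bex4, was only 8 bases. Of 32851 promoter windows of that length, 32.7% held GGGCGG, 33.8% held CCAAT and 6.02% held CACGTG.

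Bex4, a Bex protein reported to bind tubulin, was at 2.90, 2.96 and 3.43 in controls, 2.64, 2.64 and 2.10 in 3-month cre, and 1.28, 1.38 and -0.27 in 9-month cre lungs. Bex1, a neuronal relative, was at -1.57, -1.36 and -0.11, then -1.60, -0.65 and -2.23, then -2.82, -2.99 and -3.61. The late lungs were lowest for both, while control and 3-month cre lungs overlapped for Bex1. The late difference from control was -2.30 ± 0.41 for Bex4 (adjusted p = 0.0233) and -2.12 ± 0.49 for Bex1 (adjusted p = 0.0418). It was -2.03 ± 0.38 for Tceal5 (adjusted p = 0.0252) and -0.95 ± 0.21 for Tceal1, both called. Bex6, the family member on chromosome 16, fell by 2.04 ± 0.29 (adjusted p = 0.0144).

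Of the 10 measured family genes other than Bex2, 5 fell at 9 months against control and 0 rose, with a median of -1.11. Of all genes 2.81% were called lower there. Tceal8 (-0.14 ± 0.20), Tceal9 (0.18 ± 0.14) and Bex3 (-0.12 ± 0.14) were not called, and Bex3, a partner of the p75 neurotrophin receptor, was highest in the 3-month cre lungs. Against 3-month cre lungs 4 of the 10 fell, where 3.20% of all genes were called lower. The log2 differences were -1.72 for Tceal5, -1.31 for Bex6, -0.95 for Tceal1 and -0.63 for Bex3. At 3 months against control 0 of the 10 were called and 2 had an unadjusted p under 0.05 (limma), with a median of -0.15.

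Some genes of other families in the same stretch were lower too. The stretch spans 135208686 to 136709873 and holds 16 measured genes beside Bex2. Of these, 8 were called lower in 9-month cre lungs and 0 higher, against 2.81% of all genes called lower. The 8 include the family genes Bex4, Bex1, Tceal5 and Tceal1, already counted above. With the slide as a block, or with animal sex in the fit, 0 of all genes were called late against control in limma (837 and 3711 at an unadjusted p under 0.05). This span was drawn after the values were seen. Arxes1, one of a pair of adipocyte-related genes and the nearest measured neighbour of Bex2, fell by 2.04 ± 0.36. Its partner Arxes2 fell by 1.27 ± 0.24, Bhlhb9 by 1.06 ± 0.23 and Gprasp2 by 1.03 ± 0.21. The other genes outside the family, Gprasp1 (-0.52 ± 0.21), Armcx5 (-0.34 ± 0.15) and Gm31214 (-0.38 ± 0.26), were not called. At 3 months 0 of the 16 were called lower (limma). The summed signal of fat cell markers was 14.8 to 77.1 in controls, 15.4 to 52.9 in 3-month cre and 20.1 to 30.9 in 9-month cre lungs, and its part in the values of the Arxes pair was not tested. Of the 18 nearest measured neighbours of the 9 genes, 2 were called lower at 9 months and 0 higher, and these were Arxes1 and Bex4 on either side of Bex2. Bex1 and Bex4, Arxes1 and Arxes2, and Tceal3 and Tceal6 are close copies, and signal cannot be split between such copies here.

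**Figure D2:**
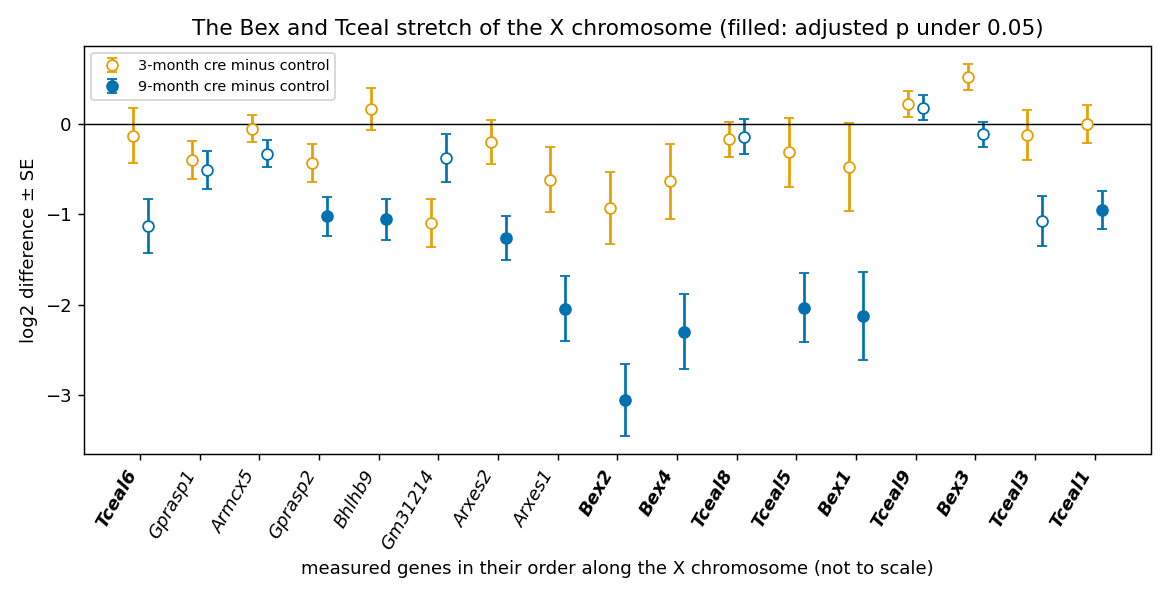
Points are log2 differences from control (± SE, 3 lungs per group) at 3 months (orange) and 9 months (blue) for the 17 measured genes of the X-linked stretch in chromosomal order, with listed Bex and Tceal genes in bold and filled points for an adjusted p under 0.05. The 9 filled points are all late falls, the lowest is Bex2 at -3.05, and Tceal8, Tceal9 and Bex3 lie near 0 at 9 months.

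Of the 2 repressors, Prdm8 had the larger late difference and the wider spread among controls. Prdm8 (chromosome 5, 98167203 to 98187454), which acts with basic helix-loop-helix partners in neurons, was at -0.29, -0.77 and 0.78 in controls, -1.39, -1.03 and -1.72 in 3-month cre, and -3.39, -3.25 and -2.85 in 9-month cre lungs. The groups did not overlap. The late difference was -3.07 ± 0.37 and the early difference -1.29 ± 0.37, which was not called (adjusted p = 0.139). Between the 2 collections Prdm8 fell by 1.78 ± 0.37 (adjusted p = 0.0406).

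Hes2 (chromosome 4, 152158867 to 152162469), a member of the hairy and enhancer of split repressors, was at -0.92, -0.69 and -0.19 in controls, -1.81, -1.41 and -2.26 in 3-month cre, and -3.04, -3.01 and -3.73 in 9-month cre lungs. Again the 3 groups did not overlap. The late difference was -2.66 ± 0.29 and the early one -1.23 ± 0.29 (adjusted p = 0.108, not called), 46.2% of the late value. Between 3 and 9 months Hes2 fell by 1.43 ± 0.29 (adjusted p = 0.0393).

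Few relatives of the repressors were called. Of 13 other measured Prdm genes 1 rose at 9 months against control, Prdm2 by 0.53 ± 0.10 (adjusted p = 0.0232), against 3.65% of all genes called higher, and 0 fell, with a list median of 0.063. Of 20 measured Hes, Hey and Notch genes 0 were called at 9 months against control, where 5 had an unadjusted p under 0.05 (limma). Their median was -0.015, and the values farthest from 0 were 1.25 ± 0.32 for the receptor Notch1 (adjusted p = 0.0556) and 0.61 ± 0.29 for the ligand Dll1. Notch1 differed from 3 to 9 months by 1.31 ± 0.32 (adjusted p = 0.0531), and Hey2, a repressor of vessel walls and heart, by -1.07 ± 0.46 after an early difference of 1.27 ± 0.46, none of them called. Mecom, a Prdm gene of blood stem cells, differed early by -0.91 ± 0.29 and was not called. At 3 months the same lists had 0 calls, with 5 Prdm genes and 1 Hes, Hey or Notch gene at an unadjusted p under 0.05 (limma).

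Rprml (chromosome 11, 103649509 to 103650580) was the dimmest of the 9 genes and its early lungs overlapped the controls. It is an intronless gene, and the window just before its start (chr11:103649359-103649508, plus strand) is shown with GC boxes in capitals because it was, after that of Stbd1, the richest in G and C of the 8 that matched.
Rprml: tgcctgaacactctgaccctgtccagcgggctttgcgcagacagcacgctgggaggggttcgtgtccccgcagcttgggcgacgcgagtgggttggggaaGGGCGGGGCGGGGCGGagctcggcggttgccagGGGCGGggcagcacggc
The 250 bases before its start held 4 matches to GGGCGG, 3 of them in 1 overlapping run, and 66.8% G or C, against a median of 52.4% over all 32851 windows. Rprml was at -4.16, -3.89 and -3.45 in controls and at -3.60, -3.40 and -4.09 in 3-month cre lungs, which overlap. In 9-month cre lungs it was at -5.96, -6.08 and -7.48, and only replicate 2 was well above background. The early difference was 0.13 ± 0.40 (adjusted p = 0.882). From 3 to 9 months the fitted fall was 2.81 ± 0.40 (adjusted p = 0.0224), a size that rests on the 2 late signals near background. With the late signals raised to the dimmest level called well above background on their array, the step was -2.21 on the log2 scale. Rprml was then 4.63-fold lower than in 3-month cre and 4.22-fold lower than in control lungs. That level comes from any probe of the array, so these folds are not lower bounds for Rprml. Under normexp background correction, which lifts dim signals, the step from 3 to 9 months was -0.87. The related reprimo gene Rprm, a p53-responsive inhibitor of the cell cycle, differed from control by -1.39 ± 0.38 at 9 months (adjusted p = 0.0634) and by -0.21 ± 0.38 at 3 months, and was not called.

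Fabp1, the liver-type fatty acid binding protein (chromosome 6, 71199879 to 71205034), had the largest share of its difference at the early collection. The window before its start (chr6:71199729-71199878, plus strand) is shown because it alone among the 8 matched promoters held AGGTCA, the core binding motif of many nuclear receptors, printed here as its reverse complement, beside a TATA box near the start.
Fabp1: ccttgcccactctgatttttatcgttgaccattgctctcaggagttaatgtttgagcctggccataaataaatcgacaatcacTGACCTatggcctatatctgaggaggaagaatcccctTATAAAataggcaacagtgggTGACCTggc
The TATAAA match began 30 bases before the start, and the 2 AGGTCA matches 67 and 9 bases before it. AGGTCA was found in 14% and TATAAA in 12.4% of the 32851 windows. Fabp1 was at 0.55, 0.04 and 1.75 in controls, -1.07, -0.38 and -1.03 in 3-month cre, and -1.52, -1.91 and -2.05 in 9-month cre lungs. All 6 cre lungs were below all controls, and control replicate 3 was highest by more than 1 log2 unit. The late difference was -2.61 ± 0.41 and the early one -1.61 ± 0.41, 61.8% of it, with an adjusted p of 0.116 (limma, not called). The step from 3 to 9 months, -0.998 ± 0.41, was not called either (adjusted p = 0.151).

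Other lipid carriers and fatty acid genes were not called. Of the 9 other measured fatty acid and retinoid binding proteins and of 21 measured targets of PPAR alpha, the fatty acid receptor that drives Fabp1 in liver, 0 were called in any of the 3 comparisons. Late against control 2.81% of all genes were called lower and 3.65% higher, so nothing is read from 0 calls in lists this short. At 9 months against control 2 of the 9 and 4 of the 21 had an unadjusted p under 0.05 (limma), and the medians were -0.21 and -0.16. Rbp7, a retinol binding protein of endothelium and fat, differed from control by -1.51 ± 0.41 late (adjusted p = 0.0619). Its early difference was -2.15 ± 0.41 (adjusted p = 0.0731). Fabp3, the heart-type carrier, differed by -1.07 ± 0.38 late and -1.39 ± 0.38 early. Summed heart muscle marker signal was 79.0 to 253 units of the 75th percentile in controls, 35.8 to 104 in 3-month cre and 75.7 to 99.6 in 9-month cre lungs, and its part in these values was not tested. Of 12 liver markers 11 were well above background on at least 1 array, all but Apoa1, and of 10 intestinal markers 6 were, all but Sis, Cdx1, Cdx2 and Alpi. None of the 8 liver and 4 intestinal markers measured was called late against control (limma), where 3 and 1 had an unadjusted p under 0.05. Their median differences were 0.60 and 0.42, with ranges of -1.58 to 2.92 for liver and 0.092 to 1.05 for intestine. The summed liver signal was 45.2 to 58.2 in controls, 52.9 to 63.1 in 3-month cre and 48.0 to 63.4 in 9-month cre lungs. The part of liver or intestinal RNA in the Fabp1 values was not tested.

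Stbd1, which tethers glycogen to membranes (chromosome 5, 92603051 to 92606579), was the 1 gene of the 9 with a pair of probes, and both gave the same order of groups. Its upstream window (chr5:92602901-92603050, plus strand) is shown for its GC boxes, in capitals.
Stbd1: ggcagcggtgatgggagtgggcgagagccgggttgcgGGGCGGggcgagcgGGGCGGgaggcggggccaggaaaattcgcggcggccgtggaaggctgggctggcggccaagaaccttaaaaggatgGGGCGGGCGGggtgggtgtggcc
The 250 bases before the start held 4 matches to GGGCGG and 24 CG pairs, against a median of 6 over all windows. The brighter probe was at 3.27, 3.18 and 3.31 in controls, 2.88, 1.83 and 2.99 in 3-month cre, and 0.74, -0.03 and 1.35 in 9-month cre lungs. The dimmer probe was at 1.33, 1.44 and 1.70, then 1.15, -0.11 and 0.94, then -1.52, -2.37 and -0.75. On both probes 3-month cre replicate 2 and 9-month cre replicate 2 were the lowest lungs of their groups. The late difference of the brighter probe was -2.56 ± 0.39 and the early one -0.68 ± 0.39 (adjusted p = 0.371, not called). Between 3 and 9 months Stbd1 fell by 1.88 ± 0.39 (adjusted p = 0.0398).

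Of 22 other measured genes of glycogen metabolism, 1 fell at 9 months against control, where 2.81% of all genes were called lower. It was the muscle glycogen phosphorylase Pygm, by 0.76 ± 0.18 (limma adjusted p = 0.0490). Against 3-month cre lungs 1 fell, where 3.20% of all genes were called lower. It was the phosphoglucomutase Pgm1, by 0.55 ± 0.12 (limma adjusted p = 0.0437). Nothing is read about the list from 1 call. At 3 months 0 of the 22 were called and 5 had an unadjusted p under 0.05 (limma). The list medians were -0.094, -0.20 and 0.076 in that order.

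Of the 3 genes of secreted proteins, Tinag and Wfdc16 had levels that stepped down over the 3 groups, and Egfl6 did not. Tinag, a basement membrane glycoprotein best known from kidney tubules (chromosome 9, 76951698 to 77045802), was at 0.25, 0.05 and 0.98 in controls, -0.26, -0.47 and -0.45 in 3-month cre, and -1.28, -2.92 and -1.96 in 9-month cre lungs. The groups did not overlap. The late difference was -2.48 ± 0.39 and the early one -0.82 ± 0.39 (adjusted p = 0.300, not called). The step from 3 to 9 months, -1.66 ± 0.39, was just outside the threshold (adjusted p = 0.0506). Of 11 kidney tubule markers with a probe, 8 were well above background on at least 1 array, and Umod, Slc12a1 and Slc12a3 were not on any. The summed signal of the 6 measured ones was 2.74 to 4.85 in controls, 5.96 to 7.56 in 3-month cre and 3.07 to 5.43 in 9-month cre lungs, and its part in the Tinag values was not tested.

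Wfdc16 (chromosome 2, 164634701 to 164638808) was at -1.95, -1.98 and -1.76 in controls, -2.94, -2.88 and -3.33 in 3-month cre, and -4.37, -4.37 and -5.38 in 9-month cre lungs. Its controls lay close together, and the groups did not overlap. The late difference was -2.81 ± 0.27 and the early one -1.15 ± 0.27 (adjusted p = 0.108, not called). The later step lowered Wfdc16, which fell by 1.66 ± 0.27 (adjusted p = 0.0290). Under normexp background correction these became -1.75 late, -0.91 early, which was then called, and -0.83 from 3 to 9 months.

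Egfl6, a matrix protein with EGF-like repeats that binds integrins (chromosome X, 166523007 to 166585716), did not follow the graded course. It was at -0.57, -0.89 and 0.36 in controls, 0.68, 0.43 and 0.06 in 3-month cre, and -1.47, -2.31 and -1.67 in 9-month cre lungs. The early lungs overlapped the upper end of the controls, and the early difference was 0.76 ± 0.35 (adjusted p = 0.284, not called). The late difference from control was -1.45 ± 0.35. Between the collections Egfl6 fell by 2.21 ± 0.35 (limma adjusted p = 0.0264), the 16th largest fall of all 16843 genes in that comparison. That comparison shares the late arrays that chose the genes, so a high rank there is partly built in. The rank 57 of Egfl6 against controls was counted only among the 447 called falls with a gene name and no overlap. The ranks therefore cannot be set side by side.

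Relatives of Egfl6 in the matrix included some that fell late. Of 14 other measured genes of EGF-like matrix proteins and their integrin receptors, 2 fell against control and 0 rose. The other 12 were not called, the median was -0.57, and 2.81% of all genes were called lower. The called genes were Npnt, nephronectin, by 1.23 ± 0.26 (adjusted p = 0.0355) and Itga8, the alpha subunit of its receptor, by 0.95 ± 0.15 (adjusted p = 0.0180). Against 3-month cre lungs 4 fell, where 3.20% of all genes were called lower. They were Npnt by 1.14, Mamdc2 by 0.96, Itga8 by 0.91 and the elastic fibre protein Fbln5 by 0.60. Npnt is also on the marker list of resident fibroblasts, of which 4 of 14 fell late against control, beside the 2.81% of all genes. The summed signal of that list was 494 to 523 in controls, 423 to 484 in 3-month cre and 326 to 521 in 9-month cre lungs, and its part in these falls was not tested.

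On the list around Tinag, 1 gene was called in each direction late against control, beside 3.65% of all genes called higher and 2.81% lower. Nothing is read about that list from 1 call each way. On the list around Wfdc16 the calls were upward only. Of 23 measured basement membrane genes, Lama1, a laminin chain of embryonic basement membranes, rose by 2.84 ± 0.46 late against control (adjusted p = 0.0182), and Col4a5, a collagen IV chain, fell by 0.47 ± 0.11. Against 3-month cre lungs Lama3 fell by 0.79, Lamb3 by 0.74 and Col4a5 by 0.51. Of 14 other measured WFDC genes, beside 3.65% of all genes called higher, 3 rose late against control and 0 fell, opposite to Wfdc16. They were Wfdc17, a macrophage transcript, by 2.27 ± 0.42, Wfdc21 by 1.88 ± 0.44 and Slpi, the secretory leukocyte protease inhibitor, by 1.52 ± 0.16. Of 14 markers of monocytes and interstitial macrophages 7 were called higher late against control, with a median of 1.15 and a summed signal of 231 to 251 in controls, 286 to 315 in 3-month cre and 348 to 442 in 9-month cre lungs. Of 13 measured neutrophil markers 4 were called higher, with a summed signal of 116 to 226, 224 to 302 and 201 to 477 in that order. The part of these cells in the WFDC values was not tested. Slpi had risen by 1.49 ± 0.16 at 3 months (adjusted p = 0.0208), the 1 early call among 147 measured related genes of all lists, while 0.368% of all genes were called higher early. Over these 147 genes the calls late against control were 9 lower and 5 higher (6.12% and 3.40%, against 2.81% and 3.65% of all genes), with a median of -0.12. Of the 9 lower calls 5 were Bex and Tceal genes, so the pooled share does not describe relatives in general. From 3 to 9 months the calls were 12 lower and 0 higher (8.16% and 0%, against 3.20% and 1.79% of all genes). Of these 12, 4 were Bex and Tceal genes and 4 were on the list around Egfl6. Late against control, the falls numbered 1 without control replicate 2 or without control replicate 3, and 3 without 9-month cre replicate 1. They numbered 5 without control replicate 1 or without 3-month cre replicate 2. The rises late against control numbered 1 without control replicate 2 or 9-month cre replicate 1, and 2 without control replicate 1 or 3. With the slide as a block, or with animal sex in the fit, 0 of the 147 were called against control (limma) in either direction at 9 months.

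What differed early was asked by setting the 3-month cre lungs against the controls. That comparison shares the control arrays that helped to choose the genes. None of the 9 genes was called (0 of 9, against 0.0831% of all genes called lower), 5 had an unadjusted p under 0.05 in limma, and adjusted p ran from 0.108 to 0.882. In 7 of 9, every 3-month cre lung was below every control, as it was in 11.4% of all genes. The 2 others were Rprml and Egfl6. The median difference was -0.93, against 0.054 over all genes. In order of size, the early differences were -1.61 for Fabp1, -1.29 for Prdm8, -1.23 for Hes2, -1.15 for Wfdc16, -0.93 for Bex2, -0.82 for Tinag and -0.68 for Stbd1. Neighbours in this order differed by less than their SE. Within slide 1, where 1 early lung lies beside the 3 controls, the median difference over the 9 was -0.75, and the direction of the 7 is fixed by the separation of the full groups.

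The comparison of 9-month with 3-month cre lungs asked what changed between the collections. It shares the late arrays that chose the genes. All 9 genes were lower in every late lung than in every early lung, as were 19.0% of all genes, and 7 of 9 were called, against 3.20% of all genes called lower. Fabp1 and Tinag were the exceptions. The median fall was 1.78 on the log2 scale, and the median over all genes was -0.028. Within slide 2, which holds 3 late and 2 early lungs, the differences ran from -2.76 to -1.12, and their direction is fixed by the separation of the full groups.

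The count of these calls moved when single lungs were left out, while the median difference over the 9 genes stayed at -1.91 to -1.70. Leaving out a control lung, which enters this comparison only through the pooled spread, moved the count too. Without 3-month cre replicate 1, or without 3-month cre replicate 2, 0 of 9 were called from 3 to 9 months. The count was 1 without 9-month cre replicate 1, 2 without control replicate 2, and 3 without control replicate 1 or without 3-month cre replicate 3. With the slide as a block 0 of 9 were called, and 0 of all genes in each comparison (837 late against control, 1144 early and 3589 from 3 to 9 months at an unadjusted p under 0.05 in limma). The medians of the 9 genes were then -2.64 late, -0.75 early and -1.72 from 3 to 9 months. With animal sex in the fit, 4 of 9 were called from 3 to 9 months, and 234 of all genes in either direction. No slide holds both a control and a 9-month cre lung, so that contrast has no value within a slide.

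**Figure D3:**
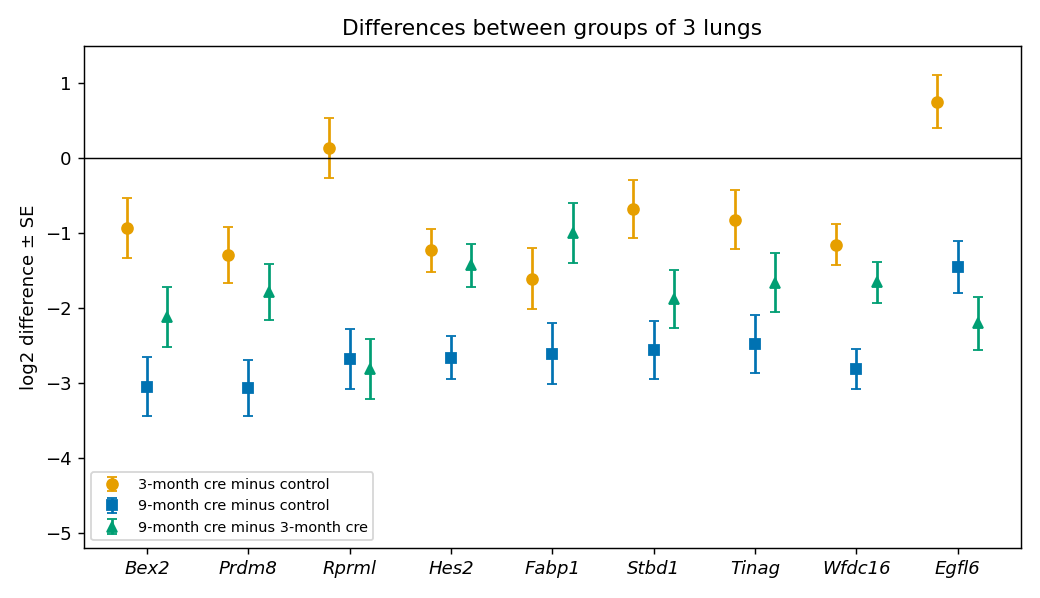
Points are fitted log2 differences with SE bars between groups of 3 lungs: 3-month cre minus control (orange circles), 9-month cre minus control (blue squares) and 9-month minus 3-month cre (green triangles). The blue squares lie between -3.07 and -1.45; the orange circles are below 0 for 7 genes and above 0 for Rprml and Egfl6.

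Control replicate 3 had the highest level of the 3 controls in 9 of 9 genes, while 44.5% of all genes were highest there, and control replicate 2 was lowest in 7 (31.2% of all genes). Among the early lungs 3-month cre replicate 2 was highest in 6 genes (37.5% of all genes) and replicate 3 lowest in 6 (41.8%). Among the late lungs 9-month cre replicate 1 was highest in 6 (33.5%) and replicate 3 lowest in 5 (37.6%). Across the 36 pairs of genes, deviations from the group means over the 9 arrays had a median Pearson r of 0.42, from -0.71 to 0.97, and 30 pairs were above 0. The closest pair was Rprml with Wfdc16, both dim. Stbd1 had r = -0.35 to the mean of the others, from -0.71 with Hes2 to 0.47 with Tinag, while Fabp1 had r = 0.84, Egfl6 0.78 and Bex2 0.77. These are descriptions over 9 arrays that share slides and scaling.

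**Figure D4:**
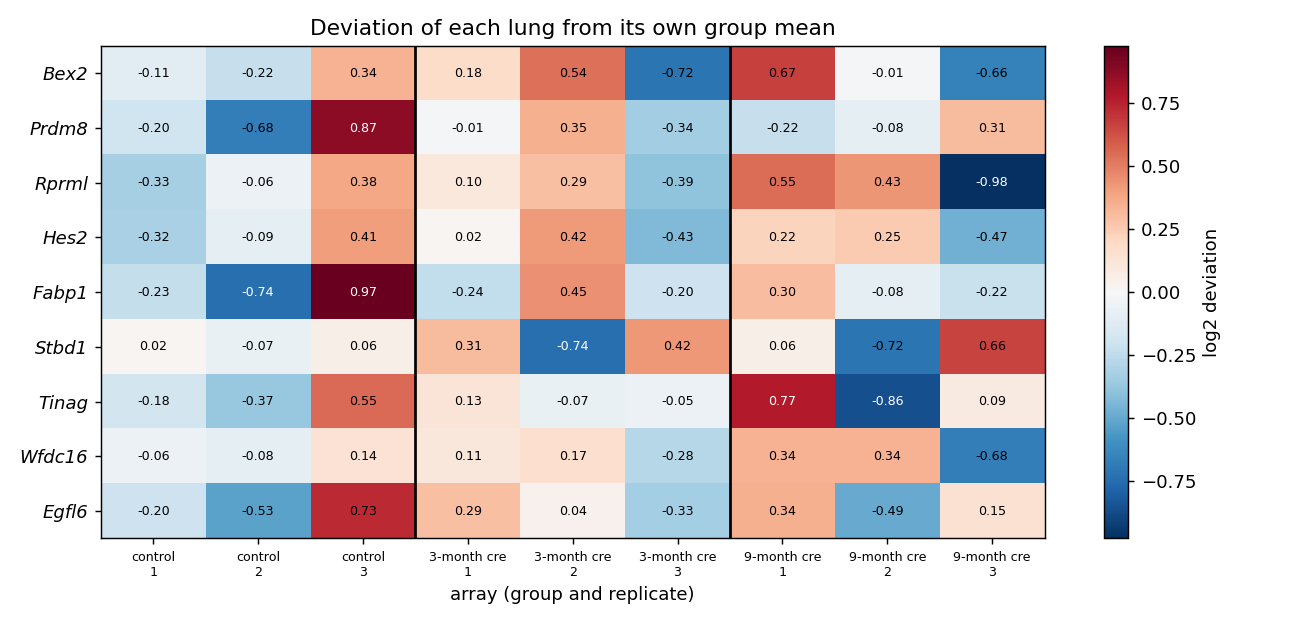
Cells give the log2 deviation of each lung from the mean of its own group for the 9 genes (rows) on the 9 arrays (columns), red above and blue below, with black lines between groups. The column of control replicate 3 is above 0 throughout, from 0.06 for Stbd1 to 0.97 for Fabp1, and the Stbd1 row has the opposite sign to most others in 3-month cre replicates 2 and 3.

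Of 8 promoters found in the RefSeq set, the Hes2 entry being the 1 absent, none held TTAGGG, the telomere repeat (0 of 8), the E box CACGTG (0 of 8) or TTANGTAA, the D box of clock genes (0 of 8). Over all windows 9.32%, 6.02% and 2.06% held them. GGGCGG was found in 3 of the 8, CCAAT in 3 and TATAAA in 2. The G and C content ran from 28.8% for Tinag to 71.2% for Stbd1, so the windows had no common composition. A match is a description of letters only.

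The genes whose levels followed the mean standardized course of the 9 most closely over the 9 arrays were Lgi3 (r = 0.99), Nr1d1, Angpt4, Txnrd3, Ddc, Cdh16, Kcnn2 and Kazald1, the last at r = 0.97. Lgi3, a secreted leucine-rich protein, was at 1.56, 1.52 and 2.30 in controls, 1.51, 1.51 and 1.29 in 3-month cre, and 0.21, 0.16 and 0.024 in 9-month cre lungs. Nr1d1, the clock repressor Rev-erb alpha, was at 1.13, 0.80 and 1.21, then 0.77, 0.76 and 0.26, then -0.46, -1.18 and -0.73. Ddc, which makes dopamine and serotonin from their precursors, was 1.82 ± 0.23 lower late than in controls, and the cadherin Cdh16 was 2.10 ± 0.25 lower. Both Lgi3 and Nr1d1 set the late lungs apart from the other 6, as the 9 genes did. That follows from their choice by likeness to the 9 genes over the same arrays, so nothing is read from it.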

How the data were processed

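Per the file headers, the deposited scanner files hold spot intensity from Agilent Feature Extraction 10.7.3.1, as a background-subtracted processed signal with flags. A second deposited set holds 1 intensity per probe that the authors had scaled between arrays, by a tool not given in the sources used here. That set served as an alternative. From 62976 spots, control spots and irregular spots were left out, and the spots of a probe were averaged. The log2 processed signal was taken relative to the 75th percentile of the array. A probe was kept when 1 or more groups had it well above background on all 3 arrays (37647 of 56605 probes). Symbols came from RefSeq transcripts (32994 probes matched), with the brightest probe for a gene. All 9 arrays were fitted by group in limma 3.58.1 under R 4.3.3, read with version 1.17.8 of data.table, with two-sided tests and Benjamini-Hochberg adjustment over 16843 genes per comparison. A difference was called at an adjusted p under 0.05. Errors are the SE of limma for 3 lungs per group, from 1 spread per gene pooled over the 3 groups and drawn toward that of all genes. They do not show the spread within a single group. The code was tested on simulated data. The precision of an array value is limited by the number of arrays. 0 columns were left unmapped.

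The members and gene lists were chosen with earlier results of these data known, so the 9-month comparison with controls is given as a description. Named genes are the 9 members, Terf1, Sftpc, up to 4 called or else 2 genes per list, the 8 closest profiles, and neighbours in the order of falls. Sftpc reached levels of 7.89 to 8.60 and was not called. Promoter windows are those of RefSeq, GRCm38.p6. Alternatives changed the background correction (normexp, offset 50), scaling, source, dim filter, probe choice, slide, replicate number, sex, groups fitted and each single lung.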

Additional observations from a re-analysis of the deposited data

Results flagged for a closer look

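For 7 of the 9 genes the difference from control at 9 months differed from that at 3 months. The test was of 9-month against 3-month cre lungs in limma, where 3.20% of all genes were called lower. The count of 7 became 0 with the slide as a block, 0 with the replicate block, 1 with no filter on dim probes and 4 with animal sex. Over all genes, calls in either direction were then 0, 6, 104 and 234, in that order. Bex2 differed by -2.12 ± 0.40 (SE), Prdm8 by -1.78 ± 0.37, Rprml by -2.81 ± 0.40 and Hes2 by -1.43 ± 0.29. The Rprml value rests on 2 late signals near background. It was 4.63-fold with them raised to the dimmest detected level, and -0.87 on the log2 scale under normexp background correction. Stbd1 differed by -1.88 ± 0.39, Wfdc16 by -1.66 ± 0.27 and Egfl6 by -2.21 ± 0.35. Each was lower in 3 of 3 late lungs than in any early lung. The late arrays also chose the genes, and age, treatment time and, for 1 early lung, the slide differ between the groups, so these cannot be told apart.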

How the results depend on the processing

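Directions held for the 9 genes in 179 of 179 alternative values late against control and 179 of 179 from 3 to 9 months, and in 177 of 179 early against control. The 2 exceptions were Rprml at -0.028 without control replicate 1 and -0.011 without 3-month cre replicate 2 (0.33 at its highest with 1 lung left out). Among Terf1, Sftpc, Bex1, Bex4, Bex6 and Tceal5, only differences that were not called changed sign. Sftpc early became -0.020 with quantile normalization, -0.037 with the deposited values and -0.197 with the slide block, and Sftpc late became -0.0115 with the deposited values and -0.163 with the slide block. Tceal5 early became 0.072 with the slide block and ran from -0.77 to 0.083 with 1 lung left out, and Bex1 early became 0.102 with sex. Terf1 from 3 to 9 months became -0.027 with median scaling and ran from -0.064 to 0.227 with 1 lung left out. Rprml has no value when every array must be well above background. Late against control, the 9 calls became 0 with the slide as a block, 0 with animal sex as a covariate and 5 with only the 2 groups fitted, and 6 to 8 with 1 lung left out (median log2 difference -2.87 to -2.49). Early against control, the 0 calls became 1 under normexp, 1 with only 2 groups and 0 to 1 with 1 lung left out (median -1.20 to -0.76). From 3 to 9 months the 7 calls became 1 with no filter, 0 with the slide block, 4 with sex, 3 with only 2 groups and 0 to 8 with 1 lung left out (median -1.91 to -1.70). Calls over all genes, in either direction, were 104 with no filter, 0 with the slide block, 234 with sex and 335 with only 2 groups. The replicate numbers do not pair the lungs: the same-number correlations of deviations were -0.24 to 0.045. With the replicate block the late calls of the 9 genes were 8 against control and 0 from 3 to 9 months, and the related genes had 3 lower and 2 higher late against control, 2 higher early, and 0 lower from 3 to 9 months. The 9 related genes called lower late against control became 16 under normexp, 14 with quantile normalization, 19 with the deposited values, 4 with no filter, 0 with the slide block, 0 with sex, 1 with only 2 groups and 1 to 11 with 1 lung left out. The 5 called higher became 3 with median scaling, 0 with the slide block, 0 with sex, 1 with only 2 groups and 1 to 7 with 1 lung left out. Early against control the 1 called higher became 0 with the slide block, 0 with sex, 4 with only 2 groups and 0 to 4 with 1 lung left out, and the 0 lower became 0 to 1. From 3 to 9 months the 12 lower became 3 with median scaling, 0 with no filter, 0 with the slide block, 2 with sex, 5 with only 2 groups and 0 to 15 with 1 lung left out. The 0 higher became 3 under normexp, 3 with the deposited values, 3 with the all-array filter, 2 with probe means and 0 to 6 with 1 lung left out. The cause of these shifts was not tested, apart from the smaller number of lungs where lungs were left out. Signals near background limit Rprml most and Wfdc16 next.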
